A study of Mus musculus with 2 samples.

Results

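The folate one-carbon enzymes described here are 8 genes, taken as every non-control spot of both arrays whose gene name in the files is Mthfd1, Mthfd1l, Mthfd2, Mthfd2l, Shmt1, Shmt2, Aldh1l1 or Aldh1l2. They were read by 12 of the 39426 probes used, and are 8 of the 29607 names those probes carry. All 8 were among the 19805 genes measured on both arrays, through 11 of the 12 probes. Measured means that a probe was well above background by the scanner software's call, and not saturated, on each array. The rule for the members uses their names and no measured value.

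The cells were 661W, an immortalised mouse line described as a photoreceptor line. One group, called choline-deficient here, was kept for 3 days in DMEM/F12 medium without choline, the precursor of phosphatidylcholine and, through betaine, a methyl donor. The other, called choline-sufficient, was kept as long in the same medium with choline, at 8.98 g/L by the labels, which is far above usual media and is given here only as stated. The growth conditions given for both groups include 10% fetal bovine serum, and serum can itself carry choline and folate. Total RNA of each group was labelled with Cy3 and hybridised to 1 Agilent single-colour array. The design text speaks of RNA pooled from 4 dishes without saying whether that is per group. There were thus no replicates, no test across samples was possible, and no p-value is given. Each group has 1 array, so array and group cannot be told apart.

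Folate enzymes carry single-carbon units on tetrahydrofolate in parallel routes, one in the cytosol and one in the mitochondrion. In the mitochondrion the carbon of serine is usually oxidised step by step to formate, which leaves for the cytosol and is there put back on folate for purine, thymidylate and methionine synthesis. The mitochondrial branch is known to be raised in proliferating cells and by the transcription factor ATF4, while its cytosolic counterparts are prominent in liver. Betaine, made from choline, and methyl-folate are alternative donors for the remethylation of homocysteine.

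The 3 members shown in this paragraph stood at least 1.5-fold apart on the arrays, and the probes that read them are printed as the first 30 of their 60 bases, 5′ to 3′, with positions on the mouse build mm9 from the array's files and all on the minus strand. The 2 lines for Mthfd1l are separate sites of the same gene.
Mthfd1l probe at chr10:6190563-6190622: ctttgcaagagtgtgaactaaaagctaatg
Mthfd1l probe at chr10:6198416-6198475: acagaaacggagcaagttaaaggcttgttc
Mthfd2 probe at chr6:83256518-83256577: ttctgtcgaaatggtttaaaatgtttgtat
Aldh1l2 probe at chr10:82950571-82950630: taaattgccttccttaagttttgctttttt

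The mitochondrial members went in both directions, whereas the cytosolic members differed little as long as a dim Aldh1l1 probe was left out. On the choline-deficient array Aldh1l2 was 2.04-fold lower and Mthfd2 1.5-fold lower, and Mthfd1l was 1.60-fold higher. The other mitochondrial members, Shmt2 and Mthfd2l, and the cytosolic members Mthfd1, Shmt1 and Aldh1l1 were under 1.5-fold apart. In bulk RNA, fewer cells with a transcript and less of it per cell cannot be told apart. Of the 8 members, 1 thus lay past 1.5-fold upwards and 2 downwards. The same sizes were reached by 14.8% of all measured genes upwards and by 14.1% downwards, so the number of members past this size is near the background. At 2-fold the count of members was 0 higher and 1 lower, beside 7.67% and 3.88% of all measured genes. Differences are log2 values, choline-deficient minus choline-sufficient, after each array was scaled to its 75th percentile. The error after ± is the scanner software's estimate for both arrays, and says nothing about variation between cultures. At bright probes it kept a nearly fixed ratio to the signal, so nearly the same error recurs across bright genes and their pairs. Statements on 2 errors rest on that ratio and not on repeated measurement.

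**Figure D1:**
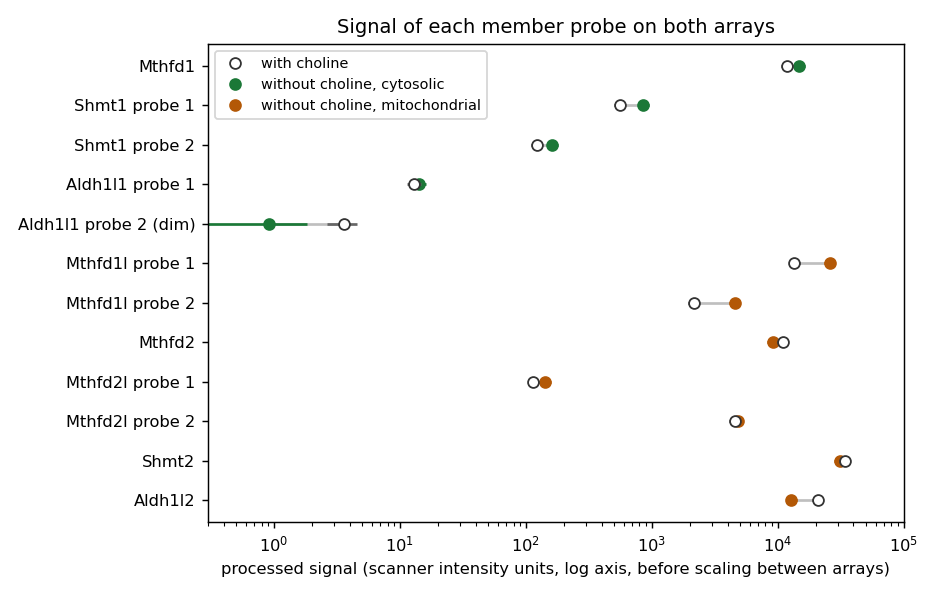
Processed signal of each member probe in scanner intensity units, on a log axis and before scaling between arrays, for the choline-sufficient array (open circles) and the choline-deficient array (filled circles, green for cytosolic and orange for mitochondrial members), with the software's error as bars. Aldh1l2, Mthfd2 and Shmt2 lie to the left of their choline-sufficient value, as does the second Aldh1l1 probe, which is dim on both arrays. All probes of Mthfd1l, Mthfd1, Shmt1 and Mthfd2l and the first Aldh1l1 probe lie to the right. The choline-deficient array was brighter as a whole, with a 75th percentile of 1609 against 1280, so sides here can differ from the scaled differences.

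Entry of carbon from serine is catalysed by the serine hydroxymethyltransferases, which pass it to tetrahydrofolate and release glycine. For the mitochondrial enzyme gene Shmt2 (NM_028230, chr10:126954811-126954870), the processed signal was 31198 ± 3120 on the choline-deficient and 34163 ± 3416 on the choline-sufficient array. After scaling this was a log2 difference of -0.46 ± 0.20, or 1.38-fold lower. For the cytosolic enzyme gene Shmt1 (NM_009171), the probe at chr11:60603099-60603158 gave 858 ± 85.8 and 557 ± 55.7, and the probe at chr11:60620453-60620512 gave 163 ± 16.3 and 123 ± 12.4. Its mean log2 difference was 0.18 ± 0.20, with 0.29 and 0.07 for the probes, which is within the error. Shmt2 differed from Shmt1 by -0.64 ± 0.29 on the log2 scale, with an interval of 2 errors from -1.22 to -0.07. It was -0.31 under quantile normalization and -0.40 under cyclic loess, both within 2 errors of 0. A difference of differences is free of a constant that scales an array, and these methods act differently on bright and dim signals.

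The oxidation steps that follow belong in the mitochondrion to Mthfd2 and Mthfd2l, both dehydrogenase and cyclohydrolase genes, of which Mthfd2 is the form of embryonic and proliferating cells. The Mthfd2 probe (NM_008638, chr6:83256518-83256577) gave 9178 ± 918 on the choline-deficient and 10972 ± 1097 on the choline-sufficient array. Its log2 difference was -0.59 ± 0.20, which lies at the 1.5-fold limit. Mthfd2 was under 1.5-fold lower in 4 of the 10 other ways of computing it, by -0.42 with quantile normalization, -0.40 with cyclic loess, -0.32 with spike-in scaling and -0.54 after normexp. For Mthfd2l, the probe of the reference transcript (NM_026788, chr5:91450245-91450304) gave 4824 ± 482 and 4603 ± 460, and a probe to a transcript known only by an Ensembl entry (chr5:91366620-91366679) gave 143 ± 14.4 and 115 ± 11.6. The mean log2 difference of Mthfd2l was -0.14 ± 0.20, with -0.26 and -0.02 for these probes. Mthfd2 and Mthfd2l were -0.45 ± 0.29 apart, an interval of 2 errors from -1.03 to 0.13, which includes 0. With 1 array per group, whether the 2 genes differed cannot be decided.

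Release of formate from formyl-tetrahydrofolate in the mitochondrion is the task of the synthetase encoded by Mthfd1l. Its probe at chr10:6190563-6190622 (NM_172308) gave 25951 ± 2595 on the choline-deficient and 13590 ± 1359 on the choline-sufficient array. Its other probe, at chr10:6198416-6198475 (NM_001170786), gave 4574 ± 457 and 2157 ± 216. Both probes were thus brighter on the choline-deficient array, with log2 differences of 0.60 and 0.75. The mean was 0.68 ± 0.20, and 0.56 when the arrays were scaled to their medians, where Mthfd1l was under 1.5-fold. Mthfd1, the cytosolic gene whose trifunctional protein includes the matching synthetase as well as dehydrogenase and cyclohydrolase activities, gave 14861 ± 1486 and 11913 ± 1191 at its probe (NM_138745, chr12:77418622-77418681). After scaling its log2 difference was -0.01 ± 0.20, and it was above 0 under quantile normalization, cyclic loess and spike-in scaling. Mthfd1l differed from Mthfd1 by 0.69 ± 0.29 (interval of 2 errors 0.11 to 1.27), while Mthfd2 differed from Mthfd1 by -0.58 ± 0.29 (-1.15 to 0.00).

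Formyl-tetrahydrofolate can instead be oxidised to carbon dioxide with reduction of NADP, by the dehydrogenases encoded by Aldh1l1 in the cytosol and Aldh1l2 in the mitochondrion. The Aldh1l2 probe (NM_153543, chr10:82950571-82950630) gave 12876 ± 1288 on the choline-deficient and 20853 ± 2085 on the choline-sufficient array. The log2 difference of Aldh1l2 was -1.03 ± 0.20, the lowest of the 8 members as reported, and it remained at least 1.5-fold lower under all 10 other ways of computing it, between -1.15 and -0.76. Aldh1l1, which marks astrocytes and liver, was close to background. Its probe at chr6:90549091-90549150 (NM_027406) gave 14.3 ± 1.74 and 13.0 ± 1.65, a log2 difference of -0.19 ± 0.25. Its second probe, at chr6:90550028-90550087 and directed to another transcript entry, was not well above background on either array. When that probe was let in, Aldh1l1 went to -1.25, below Aldh1l2, and 3 members in place of 2 were past 1.5-fold downwards. Aldh1l2 differed from Aldh1l1 by -0.84 ± 0.33, by -0.55 and -0.63 under quantile normalization and cyclic loess, which is within 2 errors of 0, and by 0.22 with the dim probe, so the pair rests on a weakly measured partner.

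**Figure D2:**
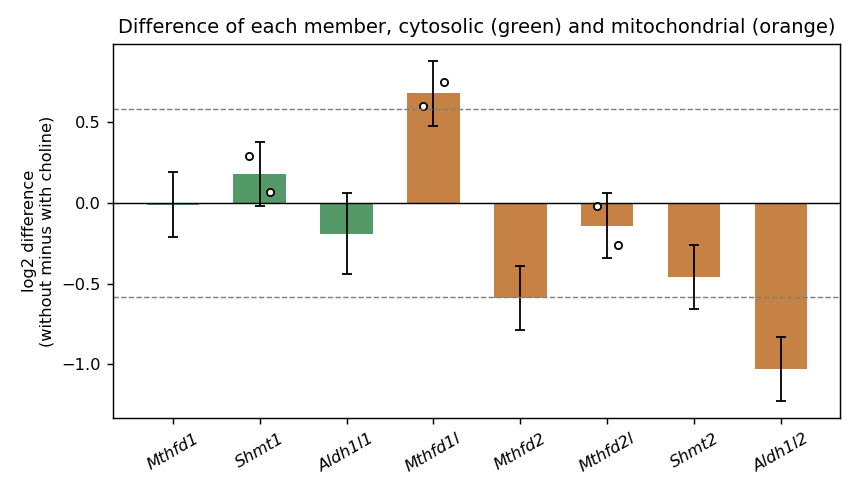
Log2 difference, choline-deficient minus choline-sufficient, of each member as a bar with the software's error, green for cytosolic and orange for mitochondrial members; open circles are the separate probes of genes with more than 1 measured probe and dashed lines mark 1.5-fold. Cytosolic bars stay between -0.19 and 0.18, and mitochondrial bars run from -1.03 to 0.68.

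Set out by compartment, the 3 cytosolic members had log2 differences from -0.19 to 0.18 with a median of -0.01, and 0 of them passed 1.5-fold. The 5 mitochondrial members ran from -1.03 to 0.68 with a median of -0.46, and 3 of them passed 1.5-fold, 1 upwards and 2 downwards, beside 14.8% and 14.1% of all measured genes. The medians were -0.45 ± 0.30 apart, and -0.10 was the median of all measured genes. The error of 0.30 rests on the software's errors and leaves out the spread among the members of a compartment, so it is no precision of the medians. A single direction for the mitochondrial branch was not seen. Mthfd1l was higher, Aldh1l2, Mthfd2 and Shmt2 were lower, and Mthfd2l at -0.14 ± 0.20 was within the error. Mthfd1l exceeded Aldh1l2 by 1.70 ± 0.29 on the log2 scale, a 3.26-fold change in the ratio of these signals between the arrays. It exceeded Mthfd2 by 1.27 ± 0.29 and Shmt2 by 1.14 ± 0.29. Over the 10 other ways of computing them these gaps stayed between 1.62 and 1.70, between 1.19 and 1.27, and between 1.0 and 1.17. The gap of Mthfd1l to Mthfd2l was smaller, at 0.82 ± 0.29.

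Of the 8 members 5, Mthfd1, Mthfd1l, Mthfd2, Shmt2 and Aldh1l2, were in the brightest 20% of measured genes. Those genes as a whole had a median log2 difference of -0.26, and 16.9% of them were at least 1.5-fold lower against 5.91% at least 1.5-fold higher. Against this background 16.7% of these bright genes lay at or below Mthfd2 and 27.4% at or below Shmt2, so neither stood out. Aldh1l2 and Mthfd1l lay nearer the edges of the bright genes, with 2.35% of them at or below Aldh1l2 and 4.67% at or above Mthfd1l. Among all measured genes 3.63% lay at or below Aldh1l2 and 12.6% at or above Mthfd1l, so Mthfd1l was less extreme there. Cyclic loess, which takes out a trend with signal, brought the median of the bright genes to -0.02 and gave -0.81 for Aldh1l2, -0.40 for Mthfd2, -0.20 for Shmt2 and 0.85 for Mthfd1l.

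**Figure D3:**
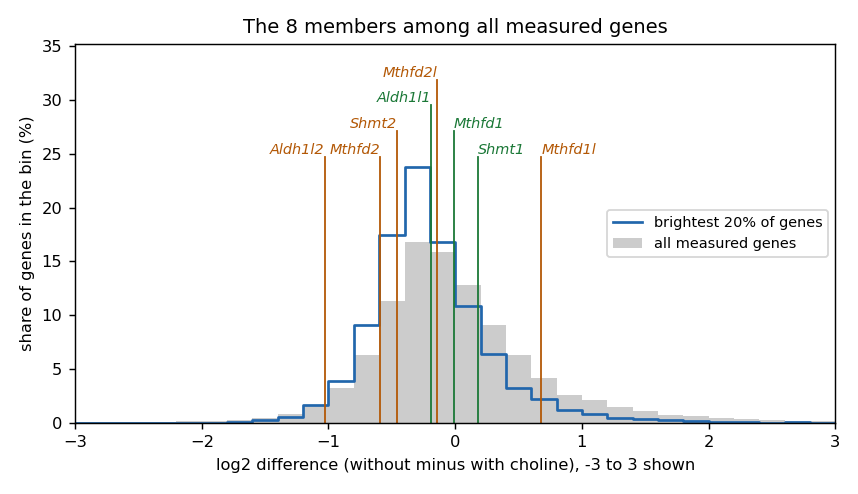
Share of genes in bins of 0.2 of the log2 difference, choline-deficient minus choline-sufficient, for all 19805 measured genes (grey) and for the brightest 20% of them (blue), with the 8 members as vertical lines (green cytosolic, orange mitochondrial). Aldh1l2 and Mthfd1l lie towards opposite edges of the brightest 20%, and the cytosolic members lie near the middle. Of all measured genes 12.6% lie at or above Mthfd1l and 3.63% at or below Aldh1l2.

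Sequence upstream of the start was available from RefSeq (GRCm38.p6) for 7 members; Aldh1l2 has no entry. The 250 bases before the start are printed for Mthfd2 and Mthfd1l, which went opposite ways, and for Shmt2. Capitals mark, on either strand, CCAAT boxes in the first. In the second they mark TGACGT, the core of sites for CREB and ATF factors. In Shmt2 they mark GCGCATG, an arm and the centre of the palindrome bound by NRF1, a regulator of mitochondrial genes, which is met once on each strand with an overlap. These motifs were chosen after the sequences were seen. The Mthfd1l window is on the plus strand in GRCm38.p6, whereas the Mthfd1l probes are placed on the minus strand in mm9. Positions were not compared between the builds.
Mthfd2, chr6:83317605-83317854, strand -: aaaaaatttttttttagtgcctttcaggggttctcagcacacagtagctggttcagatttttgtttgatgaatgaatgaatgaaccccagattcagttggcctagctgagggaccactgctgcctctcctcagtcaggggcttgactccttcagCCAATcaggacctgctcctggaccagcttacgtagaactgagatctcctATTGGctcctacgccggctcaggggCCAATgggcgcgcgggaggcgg
Mthfd1l, chr10:3972825-3973074, strand +: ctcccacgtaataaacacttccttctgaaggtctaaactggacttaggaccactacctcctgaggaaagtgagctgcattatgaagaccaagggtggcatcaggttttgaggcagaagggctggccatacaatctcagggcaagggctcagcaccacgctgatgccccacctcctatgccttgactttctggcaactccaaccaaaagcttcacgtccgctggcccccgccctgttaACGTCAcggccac
Shmt2, chr10:127522445-127522694, strand -: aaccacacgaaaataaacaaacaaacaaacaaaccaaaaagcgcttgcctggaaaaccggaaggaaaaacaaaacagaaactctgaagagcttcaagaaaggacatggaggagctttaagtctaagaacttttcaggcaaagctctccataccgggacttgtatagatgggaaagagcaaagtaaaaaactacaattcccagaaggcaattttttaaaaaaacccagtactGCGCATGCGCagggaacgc

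CCAAT was found in 4 of the 7 windows, those of Mthfd1, Shmt1, Aldh1l1 and Mthfd2, and in 33.8% of all 32851 windows of this length. Mthfd2 held it at 3 places. The NRF1 letters were found upstream of Shmt2 alone, against 3.24% of all windows, and the CREB and ATF core upstream of Mthfd1l alone, against 6.47%. The letters TGATGNAA of the C/EBP-ATF element, through which ATF4 acts, were in 0 of the 7 windows and in 3.45% of all windows. E2F sites, searched as TTTNGCGC, were likewise in 0 of the 7 and in 1.13% of all. E-boxes, searched as CACGTG, were in 0 of the 7 and in 6.02% of all. Different motifs did not overlap in the windows shown. The Shmt2 window had 40.8% G and C, against 52.4% to 60% in the other 6 and a median of 52.4% over all windows. CpG sites numbered 15 for Mthfd1, 13 for Shmt1 and 12 for Mthfd2l, and 7 for each of the others.

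Of 26 further genes of folate uptake, storage and use, 24 were measured, 3 were past 1.5-fold upwards and 1 downwards, with a median of 0.11. The share higher is near the 14.8% of all measured genes, whereas the share lower is under their 14.1%. The median of all measured genes was -0.10. The 3 higher genes serve folate uptake, a group picked out after the values were seen. Folr1, the membrane-anchored folate receptor, was 2.47-fold higher (1.31 ± 0.21) and stayed so at between 0.85 and 1.58 in every way of computing it. Slc46a1, the proton-coupled folate transporter, was 1.72-fold higher (0.78 ± 0.20) and also stayed past 1.5-fold. Folr2, the receptor known from macrophages, was 2.43-fold higher (1.28 ± 0.32) but close to background, and its difference was -0.01 after normexp. The reduced folate carrier gene Slc19a1 differed by -0.05 ± 0.20, and Slc25a32, the mitochondrial folate carrier gene, by 0.42 ± 0.20. The lower gene was Dld, whose dehydrogenase subunit serves both the glycine cleavage system and pyruvate dehydrogenase, at 1.93-fold (-0.94 ± 0.20, with its 2 probes at -0.95 and -0.94). The glycine cleavage genes Gldc, Amt and Gcsh differed by 0.31, 0.15 and -0.12. The purine synthesis genes that draw on cytosolic formyl-folate, Gart and Atic, differed by -0.10 ± 0.20 and -0.25 ± 0.20, and the thymidylate synthase gene Tyms by 0.17 ± 0.20. Mtr, which joins the folate and methionine cycles, differed by -0.47 ± 0.20. Ftcd and Dmgdh were not well above background on either array.

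Serine, the main source of the carbon, is made from a glycolytic intermediate by 3 enzymes. Phgdh, the first, was 1.51-fold lower (-0.60 ± 0.20), Psat1 differed by -0.33 ± 0.20 and Psph by -0.34 ± 0.20. The 1 call in this list, Phgdh, was lost under quantile normalization, cyclic loess, spike-in scaling and the brightest probe. Of 17 genes known as ATF4 or its targets, all measured, 6 were at least 1.5-fold lower and 0 higher, with a median of -0.48, against 14.1% lower over all genes and a median of -0.26 in the brightest 20%. They were the transsulfuration gene Cth at 4.85-fold, the stress-induced repressor Atf3 at 2.17-fold, the cystine transporter gene Slc7a11 at 1.84-fold, Ddit3, which encodes CHOP, and the stress gene Nupr1 at 1.73-fold each, and Sesn2, an inhibitor of mTORC1, at 1.57-fold. Atf4 itself differed by -0.34 ± 0.20 and Asns by -0.21 ± 0.20. The count was 3 under cyclic loess and under spike-in scaling, 4 under quantile normalization and 9 under median scaling. This list was chosen with earlier results of these data known, so its direction is no independent evidence. Among 21 S-phase genes Gins2 was 1.63-fold higher (0.70 ± 0.20), Tk1 1.53-fold higher with probes from 0.04 to 0.92, and Gins1 1.61-fold lower (-0.69 ± 0.20). The median of the 21 was -0.03, so genes of DNA replication gave no common direction beside the members. Of all measured genes 14.8% were past 1.5-fold upwards and 14.1% downwards, so 2 and 1 of 21 are not above the background.

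**Figure D4:**
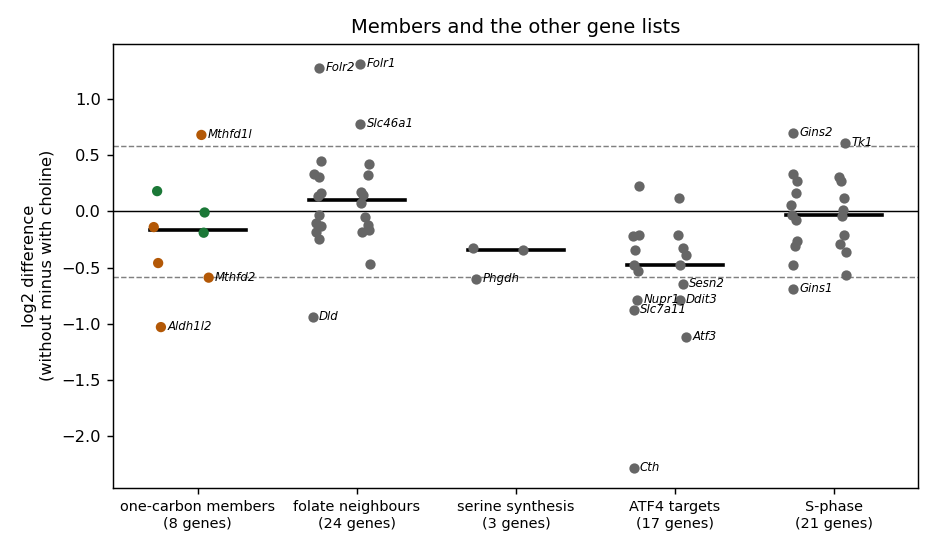
Log2 difference, choline-deficient minus choline-sufficient, of each measured gene of the one-carbon members (green cytosolic, orange mitochondrial) and of the 4 other lists (grey), with the list median as a black bar and 1.5-fold as dashed lines; genes past 1.5-fold are named and sideways position has no meaning. Folr1, Folr2 and Slc46a1 are high among the folate genes, and 15 of the 17 ATF4 genes lie below 0. At or below -0.01 lie 56.6% of all measured genes and 73.1% of the bright genes, the group that holds Mthfd1. Values below 0 are thus common outside the ATF4 list, and whether its count goes beyond this was not tested. That list was chosen with earlier results known.

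For the series as a whole, 70.7% of spots on the choline-deficient and 68.5% on the choline-sufficient array were well above background, and 0 were saturated. Of 13 cone photoreceptor markers 6 were measured and 3 of these passed 1.5-fold upwards without choline, with a summed level of 0.444 times the array's 75th percentile against 0.291, and Opn1sw, Cngb3, Grk1 and Crx were above background on neither array. Of those 3, Pde6h was close to background (log2 level -7.29 against -8.16), and among the 6 measured Arr3 differed by -0.41. Pde6c was above background on the choline-sufficient array only, and Cnga3 and Guca1a on the choline-deficient array only. Fibroblast markers were higher on the choline-deficient array for 4 of 5 measured genes at 2-fold, with sums of 69.8 against 8.12, and Lum was above background on neither array. Muller glia and astrocyte markers were higher for 3 of 6, with sums of 12.9 against 2.38, while Glul, Gfap and Aqp4 differed by 0.26, -0.09 and -0.32. Kcnj10 and Sox2 were above background on neither array, and Rlbp1 on the choline-deficient array only. On the choline-deficient array Col1a2 alone (log2 level 5.96, against 2.87 on the other) made most of the fibroblast sum, and Dkk3 alone (3.36, against 0.16) most of the glial sum. Over all measured genes 14.8% were higher at 1.5-fold and 7.67% at 2-fold. Of 6 macrophage markers 1, Aif1 (log2 level -4.30 against -5.58), was higher, with sums of 0.182 against 0.153. As 4 of the 6 lay below 0, the higher sum does not describe that list as a whole. The part of these shifts in the members' differences was not tested.

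**Figure D5:**
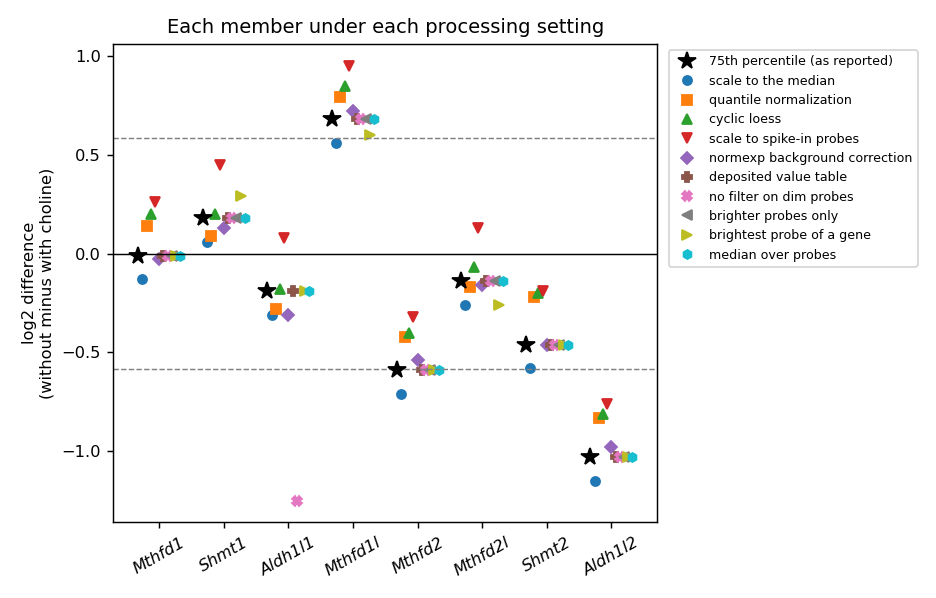
Log2 difference, choline-deficient minus choline-sufficient, of each member under the reported setting (black star) and under each alternative (coloured symbols), with 1.5-fold as dashed lines. Aldh1l2 stays below and Mthfd1l above 0 throughout, the symbols of Mthfd1 fall on both sides of 0, and spike-in scaling gives the highest value of each member.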

How the data were processed

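The series holds 2 samples of 661W cells, 1 choline-deficient and 1 choline-sufficient, grouped by the treatment in the labels. From 200 ng of total RNA, Cy3-labelled RNA was made with a low-input kit, per the extraction and labelling protocols. Scanner output came from Agilent Feature Extraction, version 12.1.1.1 in the submitters' processing notes. The deposited intensity values had their background subtracted and were detrended inside each array, and arrays were not normalized to each other, per the file headers. The deposited value table gives a ratio: processed signals divided by 1609 and 1280, the arrays' 75th percentiles. It is linear, uncentred, and has medians of 0.0358 and 0.0337. For the authors' own account of that table, the sources used here give none.

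For each array, log2 signals were set relative to the 75th percentile of all non-control spots. Spots marked as outliers by the software (92 and 86) were left out. Spots of a probe and measured probes of a gene were averaged. Normexp with an offset of 50, cyclic loess and quantile normalization used limma 3.58.1 in R 4.3.3; the rest used Python 3.11.15, numpy 2.4.6 and pandas 2.3.3. Errors of differences combine the software's errors of both signals and are averaged over probes. For 268 probes printed several times, the difference varied between spots with a median SD of 0.0481, and the median error was 0.20. Precision is limited by there being 1 array per condition.

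With 1 array per group, a fixed size of 1.5-fold describes the 2 arrays. The calculation was tested on simulated data with spot noise of 0.05 on the log2 scale. It called 50 of 50 genes set 1.75-fold apart, 0 of 50 set 1.25-fold apart and 0 of 19625 unchanged genes. With noise that small the test checks the arithmetic only, and not how often cultures differ by 1.5-fold. The alternatives were scaling to the median or to 5 bright spike-in probes, quantile normalization, cyclic loess, normexp, the deposited table, no filter on dim probes, only the brighter probes (13609 genes), the brightest probe, the median over probes, a 2-fold size and a size over 2 errors. Members and lists were chosen with earlier results of these data known. Named were all members, of each other list up to 6 genes past 1.5-fold with the largest differences, and the serine synthesis genes. Other genes named with values below that size, and marker genes named for lacking signal, were picked after the values were known. Likeness of pattern between genes was not computed, since 2 arrays give 1 difference per gene. Gene names are those of the files, and all 101 written list members were matched by symbol. Promoter windows were limited to the bases before the start, and the 50 bases after it that had been planned were left out. Positions of probes are on mm9, and no genome of that build was used here.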

Additional observations from a re-analysis of the deposited data

How the results depend on the processing

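Aldh1l2 stayed at least 1.5-fold lower under all 10 alternatives that recompute the differences, and Mthfd1l at least 1.5-fold higher under 9 of them. Median scaling shifted the median of all genes by -0.12, and spike-in scaling by 0.27. Higher genes made up 51.1% of genes at least 1.5-fold apart as reported, 37.1% with median scaling and 80.2% with spike-in scaling. All genes counted higher or lower, 2930 and 2801 as reported, were 4795 and 1181 with spike-in scaling, and 1669 higher after normexp. With spike-in scaling, 1 member was lower, 7 further folate genes higher, 0 serine genes lower, 3 ATF4 genes lower and 0 S-phase genes lower, with medians of 0.26 (cytosolic) and -0.19 (mitochondrial). With median scaling, 0 members were higher, 2 folate genes lower, 9 ATF4 genes lower, and S-phase genes 0 higher and 3 lower. Cyclic loess gave 1 member lower, 0 serine, 3 ATF4 and 0 S-phase genes lower and a mitochondrial median of -0.20. Quantile normalization gave 1 member lower, 0 serine genes lower and a mitochondrial median of -0.22. Normexp gave 1 member lower and 1 S-phase gene higher. The 2-fold size, being larger, gave 0 members higher and 1 lower, 0 folate genes lower, 0 serine genes lower, 2 ATF4 genes lower, and 0 S-phase genes in either direction. The brightest probe gave 0 serine genes lower. With no filter 3 members were lower, Aldh1l1 was -1.25 and Aldh1l2 minus Aldh1l1 was 0.22, where the added dim Aldh1l1 probe shows the cause. In that setting 2 further folate genes were lower, among 26 genes with a value in place of 24. The cause of the other shifts was not tested. With only the brighter probes Aldh1l1 had no value. Shmt2 minus Shmt1 was -0.31 with quantile normalization. The gap between the compartment medians stayed between -0.55 and -0.31. Aldh1l1 and Folr2 are limited by a signal near background. No paired analysis was possible because each group has 1 array.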
